A study of Mus musculus with 12 samples.

Results

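The genes described here carry out or time DNA replication in S phase. They form a list of 31 mouse genes, chosen by name with earlier results of these data known. Of these, 29 were measured by a probe set annotated to that gene alone, among 22180 genes on the array. Rfc4 and Ccne2 had only a probe set shared with another gene and were left out. The probe set with the highest mean signal stood for each gene.

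Keratinocytes, the cells that build the epidermis, were grown from mice, and their total RNA was hybridised to 12 Affymetrix arrays, 1 per sample. All cultures carried Atg7 alleles flanked by recombination sites (Atg7 f/f). KO cultures also carried K14::Cre, a recombinase under the promoter of a basal keratinocyte keratin, and are labelled autophagy deficient, while wt cultures carried no Cre and are labelled competent. Each genotype received 20 µM paraquat (PQ), a herbicide that cycles with oxygen and yields superoxide, or sham treatment (ctrl), while growing in KGM-2 medium, and RNA was taken after 48 h. The groups were KO PQ, KO ctrl, wt PQ and wt ctrl, with 3 arrays each. The samples are described as biological triplicates with no animal or culture named for any array, so p-values cover the spread among these arrays and perhaps no more than technical variation.

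Replication starts with licensing: the loaders CDC6 and CDT1 place the ring-shaped MCM helicase on origins before S phase. MCM10, CDC45 and the GINS complex then turn the ring into a moving helicase, and polymerases with the sliding clamp PCNA and its RFC loader copy the strands. Ribonucleotide reductase, thymidylate synthase and thymidine kinase supply the nucleotides. Most of these genes are transcribed as cells pass from G1 into S phase, when E2F factors are released from RB proteins and cyclin E with CDK2 drives entry. In the epidermis this programme belongs to the cycling cells of the basal layer and is shut off as cells differentiate.

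The promoters of the members with the smallest p in the paraquat response of KO cultures and in the difference between genotypes are shown first, because those members carry the comparisons below. Sequences are RefSeq windows of 300 bases, from 250 before to 50 after the annotated start, and 25 of the 29 genes had a window. Capitals mark matches to E2F letters (TTTCCCGC, TTTCGCGC, TTTGCCGC or TTTGGCGC on either strand) and to the CCAAT box on either strand, which overlap in the second E2F match of Mcm7.
Mcm7 promoter (GRCm38.p6, chr5:138171834-138172133, minus strand): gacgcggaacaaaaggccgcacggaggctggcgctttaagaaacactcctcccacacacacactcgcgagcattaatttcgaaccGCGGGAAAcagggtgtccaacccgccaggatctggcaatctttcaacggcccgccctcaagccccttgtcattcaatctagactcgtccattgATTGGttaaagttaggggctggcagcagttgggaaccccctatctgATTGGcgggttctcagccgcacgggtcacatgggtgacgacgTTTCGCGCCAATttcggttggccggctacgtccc
Mcm2 promoter (GRCm38.p6, chr6:88898731-88899030, minus strand): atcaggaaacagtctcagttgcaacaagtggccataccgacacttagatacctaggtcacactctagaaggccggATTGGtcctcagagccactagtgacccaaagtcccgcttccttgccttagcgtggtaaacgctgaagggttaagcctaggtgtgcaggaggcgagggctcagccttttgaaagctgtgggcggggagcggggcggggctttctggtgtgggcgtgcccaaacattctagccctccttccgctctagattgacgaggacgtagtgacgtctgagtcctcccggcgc
Ccne1 promoter (GRCm38.p6, chr7:38107441-38107740, minus strand): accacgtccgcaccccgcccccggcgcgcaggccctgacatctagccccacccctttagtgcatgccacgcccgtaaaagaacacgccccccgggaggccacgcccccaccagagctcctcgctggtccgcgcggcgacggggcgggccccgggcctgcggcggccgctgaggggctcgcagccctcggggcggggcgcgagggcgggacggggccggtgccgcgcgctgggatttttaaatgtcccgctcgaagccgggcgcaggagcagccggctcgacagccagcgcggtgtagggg
Cdc6 promoter (GRCm38.p6, chr11:98907901-98908200, plus strand): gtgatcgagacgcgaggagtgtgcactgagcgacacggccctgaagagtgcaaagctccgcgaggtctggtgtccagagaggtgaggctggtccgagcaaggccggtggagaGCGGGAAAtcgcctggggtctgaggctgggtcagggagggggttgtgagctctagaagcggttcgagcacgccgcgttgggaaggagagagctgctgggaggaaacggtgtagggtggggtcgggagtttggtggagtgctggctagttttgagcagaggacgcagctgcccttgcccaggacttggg
Rrm2 promoter (GRCm38.p6, chr12:24708004-24708303, plus strand): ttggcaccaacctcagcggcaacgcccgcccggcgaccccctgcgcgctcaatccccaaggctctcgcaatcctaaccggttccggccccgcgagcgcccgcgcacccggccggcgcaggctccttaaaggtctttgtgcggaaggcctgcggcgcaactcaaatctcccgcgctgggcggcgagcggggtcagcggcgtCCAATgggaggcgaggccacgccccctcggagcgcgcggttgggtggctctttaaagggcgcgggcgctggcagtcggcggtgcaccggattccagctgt
Mcm7 held 2 matches to the E2F letters and Cdc6 held 1, while the windows of Mcm2, Ccne1 and Rrm2 held none of these letters. Mcm7 has a second annotated window (chr5:138171217-138171516), which held 0 E2F matches.

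Across the list, 10 of 25 members (40.0%) held at least 1 match to the E2F letters in any of their windows, against 2.6% of all 27025 genes with a window and 3.26% of the genes measured on the array. The 8 members not yet shown are given below with the match in capitals, each written on the strand that reads TTT first and with up to 10 bases on either side. Each position is that of the first base of the match along the strand of the gene. For Mcm3, Mcm5, Rfc3, Pola1 and Pold1 the written strand is the opposite one, so this base is the last capital letter. Where a gene had several matches, the one nearest the start is shown.
Mcm3 site (chr1:20820286-20820293, first base at base 20 of the transcript): cttcccaagtTTTCCCGCcacggaagtt
Mcm5 site (chr8:75109360-75109367, first base at 149 bases before the start): ggctggacgtTTTGGCGCgaaagttctt
Mcm6 site (chr1:128359745-128359752, first base at 47 bases before the start): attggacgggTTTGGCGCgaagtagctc
Cdt1 site (chr8:122568047-122568054, first base at base 33 of the transcript): gaactaccttTTTGGCGCcatggcgcaa
Rfc3 site (chr5:151651201-151651208, first base at base 1 of the transcript): acagtagagtTTTCCCGCgagcgcgaaa
Pola1 site (chrX:93632286-93632293, first base at 138 bases before the start): cgggagtgcaTTTGGCGCcctgtgatga
Pold1 site (chr7:44548769-44548776, first base at base 40 of the transcript): gctTTTCCCGCcacaagatac
Uhrf1 site (chr17:56304128-56304135, first base at 185 bases before the start): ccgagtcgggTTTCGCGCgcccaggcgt
Mcm5 and Mcm6 each held a pair of overlapping matches on opposite strands. Of 42 other replication genes with a window, 14 held the E2F letters (33.3%), against 1 of 26 mitosis genes (3.85%). The letters TTTGAA, named the cell cycle homology region of mitotic genes, ran the other way, with 3 of 25 members (12%), 20 of 26 mitosis genes (76.9%), 20.2% of all genes and 17.8% of those on the array. A CCAAT box lay in 16 of 25 members (64.0%), 19 of 26 mitosis genes (73.1%), 41.1% of all genes and 41.6% of those on the array. A GC box (GGGCGG) lay in 18 of 25 members (72.0%), 21 of 26 mitosis genes (80.8%), 38.2% of all genes and 49.5% of the genes measured on the array. These counts describe letters in these windows and no binding was measured.

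Array medians lay between 42 and 45, and 27 of the 29 members were above 45 in every array. Cdc45 and Gins1 reached that level or lower in some arrays, and they were kept in the list. The number of arrays limits the precision. Atg7, the targeted gene, had signals of 96 to 148 in the 6 KO arrays and 286 to 457 in the 6 wt arrays, and a 2-sided exact permutation test on mean log2 signal gave p = 0.00216, the smallest p this design allows. The keratinocyte markers Krt14, Trp63, Perp, Dsg3 and Dsp were at 801 or more in all arrays, while Krt15 was at 21 to 41. Of 9 keratinocyte markers, 3 fell under paraquat in each genotype, while 12.6% of all genes fell in KO and 14.3% in wt. The 3 were Itgb4 (log2 -0.67 in KO and -1.2 in wt), Krt17 (-0.23 and -0.44) and Krt14 (-0.22 and -0.28), and their part in the results below was not tested. Array wt ctrl 2 stood apart: it had the lowest signal of its group in 24 of the 29 members, and its mean log2 signal over 30 mitosis genes was 6.83, against 8.06 in wt ctrl 1 and 7.68 in wt ctrl 3. KO PQ 3 had the highest signal of its group in 24 members. Other arrays came near this number: wt ctrl 1 and wt PQ 1 were each highest in 21 members, and KO PQ 2 was lowest in 21. The rank alone therefore does not set KO PQ 3 apart. Counts are also given without wt ctrl 2 or KO PQ 3.

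**Figure D1:**
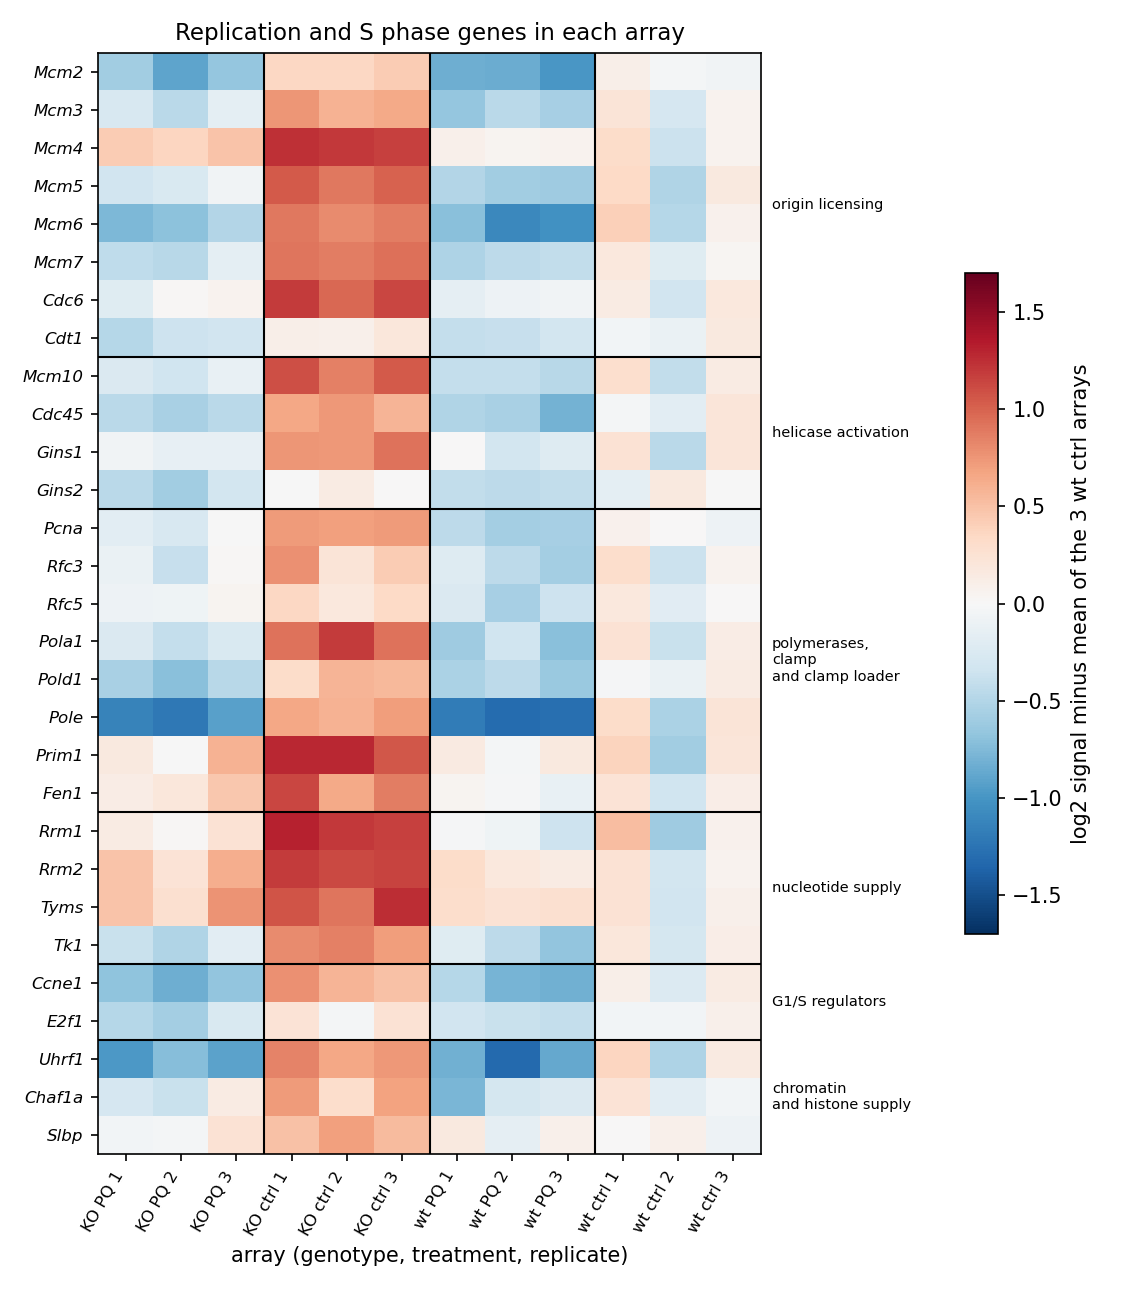
Log2 signal of the 29 measured genes (rows, by role) in the 12 arrays (columns), minus the mean of the 3 wt ctrl arrays of each gene; red is higher and blue is lower. The KO ctrl columns are red in almost every row, the wt PQ columns are mostly blue, and within wt ctrl the array numbered 2 is the palest or bluest in most rows.

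Paraquat against sham in KO cultures asked how the replication genes of autophagy-deficient cells responded to the oxidant. All 29 members fell, with a median log2 change of -0.96 and a range from -1.74 to -0.33, while 12.6% of all genes fell and the median over all genes was 0.01. The arrays of KO PQ lay below those of KO ctrl without overlap in all 29 members, a pattern shown by 17.3% of all genes. In RNA from whole cultures, fewer cells in S phase and less RNA per cell cannot be told apart. Tested against a change of at least 1.5-fold, 13 members passed, against 1.67% of all genes in the same direction: Mcm2, Mcm5, Mcm6, Mcm7, Mcm10, Cdc6, Cdc45, Pola1, Pold1, Pole, Tk1, Ccne1 and Uhrf1.

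The licensing genes fell together in KO. Mcm7, a subunit of the helicase ring, had signals of 197, 192 and 237 in KO PQ, against 501, 487 and 508 in KO ctrl. It was 2.4-fold lower (log2 -1.26 ± 0.11, SE, 3 arrays in each group, adjusted p = 2.11e-06 in limma). Here and below, the SE of a log2 difference uses 1 spread per gene pooled over all 12 arrays. The spread of groups outside a comparison therefore enters its error. Mcm2, another subunit, had signals of 183, 148 and 174 in KO PQ, against 352, 350 and 370 in KO ctrl (log2 -1.09 ± 0.09, adjusted p = 2.13e-06). No PQ array came near a sham array in either gene. Mcm6 fell most among the subunits, with log2 -1.51, and Mcm4 fell least, with log2 -0.77. The loader gene Cdc6 fell by 1.13 and the loader gene Cdt1, whose protein is also destroyed in S phase, by 0.52.

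Genes that start and move the fork also fell in KO. Pole, the catalytic subunit of the leading-strand polymerase, fell most of all members and had signals of 92, 87 and 107 in KO PQ, against 319, 304 and 332 in KO ctrl (log2 -1.74 ± 0.17, adjusted p = 6.81e-06). A second, dimmer probe set of Pole gave log2 -0.49 and did not pass (adjusted p = 0.0556). Pola1 (-1.32), which with primase lays down the first stretch of each strand, Pold1 (-1.06), the lagging-strand polymerase, and Mcm10 (-1.24) fell by similar amounts. Pcna, the sliding clamp, fell to 921, 869 and 1040 in KO PQ, against 1737, 1705 and 1729 in KO ctrl (log2 -0.87 ± 0.08). The clamp loader subunits moved less, with log2 -0.64 for Rfc3 and -0.33 for Rfc5. Fen1, which trims Okazaki fragments, fell by 0.62, while a second probe set gave log2 -0.20 and did not pass (adjusted p = 0.349).

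Among the G1/S regulators, Ccne1, encoding cyclin E1, had signals of 98, 88 and 99 in KO PQ, against 270, 234 and 222 in KO ctrl (log2 -1.35 ± 0.12, adjusted p = 3.89e-06). E2f1, an activating E2F factor, fell by less (log2 -0.59 ± 0.10). Uhrf1, which carries DNA methylation through replication, had signals of 96, 115 and 101 in KO PQ, against 339, 300 and 315 in KO ctrl, a 3.06-fold fall (log2 -1.61 ± 0.19). Chaf1a, a subunit of the histone chaperone at the fork, and Slbp, which binds histone messages, fell by 0.75 and 0.52. Of the nucleotide genes, Tk1 (-1.14) and Rrm1 (-1.09) fell further than Rrm2 (-0.71) and Tyms (-0.57). With each of the 12 arrays left out in turn, 26 of the 29 calls held throughout, and without KO PQ 3 alone 28 members fell. Rfc3 missed the threshold without KO PQ 2 (adjusted p = 0.0778) or KO ctrl 1 (0.0766), and Tyms without KO PQ 2 (0.0613) or KO ctrl 3 (0.0564). Rfc5 missed it in 7 of the 12 omissions, those of any KO PQ array, of KO ctrl 1 or 3, of wt PQ 3 or of wt ctrl 3, with adjusted p up to 0.122.

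The same comparison in wt cultures gave a smaller set. Of the 29 members, 18 fell and 11 did not pass, with a median log2 change of -0.42 and a range from -1.26 to 0.27, against 14.3% of all genes falling. The arrays of wt PQ lay below those of wt ctrl without overlap in 15 members, against 18.3% of all genes. Without wt ctrl 2 the members that fell numbered 21 and the median was -0.53; without wt ctrl 1 or without wt ctrl 3 they numbered 13. Tested against at least 1.5-fold, Pole alone passed, against 2.22% of all genes in that direction.

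Pole had signals of 89, 82 and 83 in wt PQ, against 252, 140 and 236 in wt ctrl (log2 -1.26 ± 0.17, adjusted p = 7.59e-05), the lowest sham value being that of wt ctrl 2, while its second probe set gave log2 -0.21 and did not pass (adjusted p = 0.437). Mcm2 had signals of 155, 154 and 139 in wt PQ, against 294, 270 and 263 in wt ctrl, and fell by 0.88 ± 0.09 on the log2 scale (SE, adjusted p = 7.3e-06), the smallest p of the list in wt. In Mcm2 the sham array numbered 2 did not stand apart. Uhrf1 (-1.0), Mcm6 (-0.94), Ccne1 (-0.70), Cdc45 (-0.62), Mcm3 (-0.56), Pold1 (-0.54), Pcna (-0.53), Mcm7 (-0.46), Gins2 (-0.42) and Cdt1 (-0.37) fell and kept the call with each array left out.

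The other 6 calls in wt, with adjusted p from 0.0131 to 0.0442, were lost when certain single arrays were omitted. Mcm5 (log2 -0.56), Tk1 (-0.44) and Pola1 (-0.55) missed the threshold without wt ctrl 1 (adjusted p = 0.101, 0.135 and 0.0659), without wt ctrl 3 (0.089, 0.118 and 0.0572) or without wt PQ 3 (0.0624, 0.148 and 0.0604), and Mcm5 and Tk1 also without wt PQ 2 (0.0595 and 0.0803). Mcm10 (-0.42) kept the call only without wt ctrl 2 or KO ctrl 2 and was lost in the other 10 omissions, with adjusted p up to 0.193. In 5 of these the omitted array was a KO array and the log2 value stayed at -0.42. Rfc5 (-0.39) missed it without wt PQ 2 (0.0839) or wt ctrl 1 (0.0799), and E2f1 (-0.37) without wt ctrl 3 (0.0577).

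The 11 members that did not pass in wt included 3 of the 4 nucleotide genes. Rrm2, the regulated small subunit of ribonucleotide reductase, had signals of 491, 446 and 436 in wt PQ, against 471, 320 and 411 in wt ctrl (log2 0.21, 95% interval -0.08 to 0.49). Tyms, thymidylate synthase, had 130, 125 and 128 in wt PQ, against 125, 84 and 112 in wt ctrl (0.27, interval -0.05 to 0.60). Rrm1, the large reductase subunit, had 709, 684 and 563 in wt PQ, against 1029, 473 and 756 in wt ctrl (-0.14, interval -0.59 to 0.30). The groups overlapped in all 3 genes, and the wt ctrl arrays spread more widely than the wt PQ arrays. The remaining 8 were Mcm4 (0.06), Prim1 (0.10), Slbp (0.04), Fen1 (-0.04), Cdc6 (-0.10), Gins1 (-0.18), Rfc3 (-0.41) and Chaf1a (-0.44). Gins1 (adjusted p = 0.0113), Rrm1 (0.0316) and Rfc3 (0.0205) passed without wt ctrl 2.

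**Figure D2:**
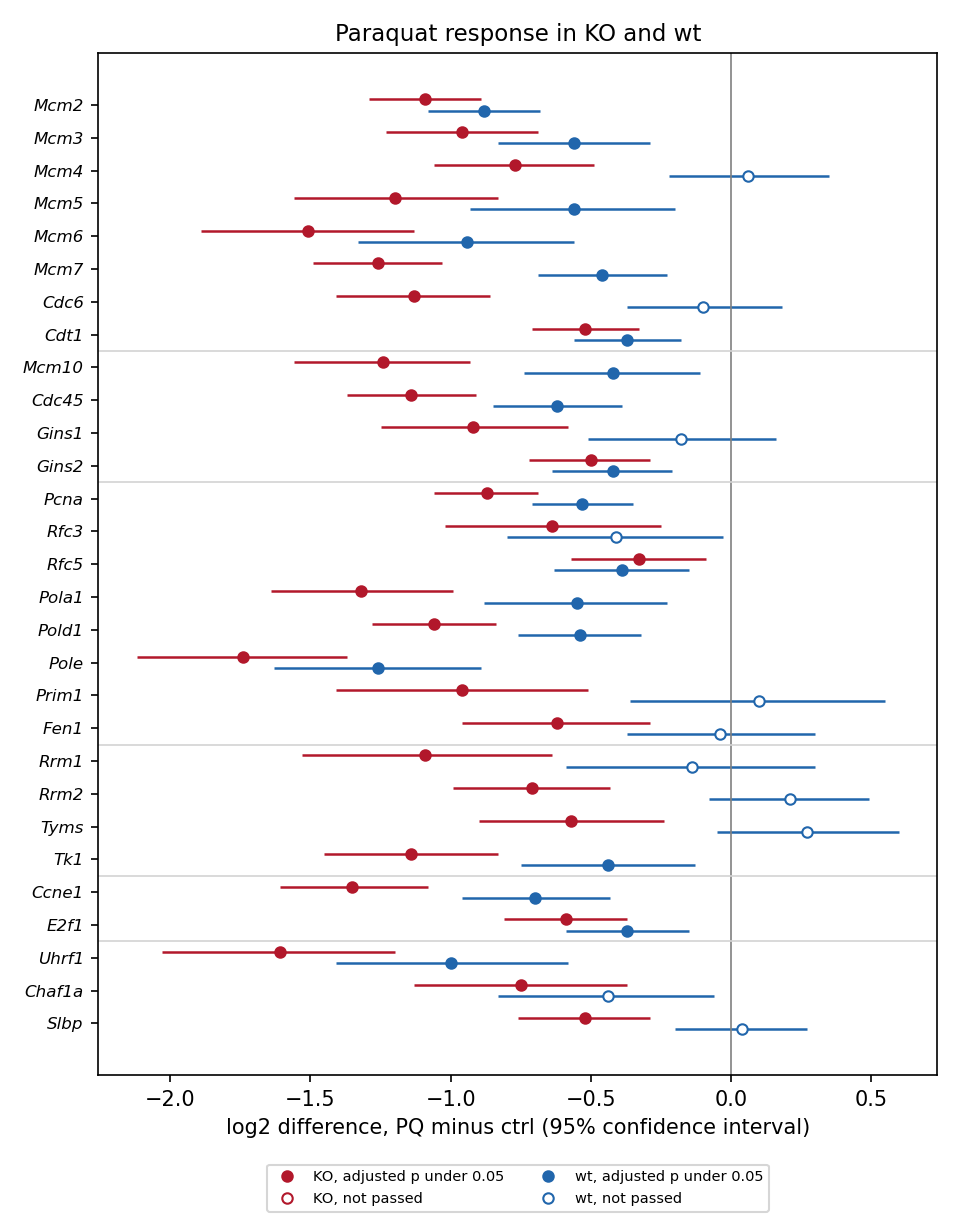
Paraquat response of each member (rows, by role, separated by grey lines): log2 difference, PQ minus ctrl, with its 95% confidence interval, in KO (red) and in wt (blue); filled points passed an adjusted p of 0.05 in limma. All 29 KO points are filled and lie left of 0, while 18 wt points are filled and 5 wt points lie right of 0.

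KO against wt in sham cultures asked whether the genotypes differed before any oxidant. Of the 29 members, 23 were higher in KO ctrl than in wt ctrl and 0 lower, against 4.58% of all genes higher and 5.67% lower. The median log2 difference was 0.75, with a range from 0.05 to 1.22. The arrays of KO ctrl lay above those of wt ctrl without overlap in 24 members, against 10.1% of all genes. With wt ctrl 2 left out the number higher was 21 and the median 0.61. Tested against at least 1.5-fold, 0 members passed (11 at an unadjusted p under 0.05 in the same limma test), against 0.0992% of all genes higher.

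Nucleotide supply differed most by median. Rrm1 had signals of 1777, 1642 and 1605 in KO ctrl, against 1029, 473 and 756 in wt ctrl, and was 2.33-fold higher (log2 1.22 ± 0.21, with the SE from the spread pooled over all 12 arrays, and adjusted p = 0.00221). Its difference was 0.92 without wt ctrl 2, the lowest with any array left out. Rrm2 had 903, 865 and 876 in KO ctrl, against 471, 320 and 411 in wt ctrl (1.16 ± 0.13, adjusted p = 0.000188), and its second probe set gave 1.29. In both genes every KO ctrl array stood above every wt ctrl array. Tyms (1.08) and Tk1 (0.79), the salvage kinase for thymidine, were also higher.

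Of the licensing genes 7 of 8 were higher in KO ctrl. Mcm4 had signals of 1066, 1045 and 1010 in KO ctrl, against 564, 350 and 470 in wt ctrl, a 2.3-fold difference (log2 1.2 ± 0.13, adjusted p = 0.000153, the smallest p of the list here). Cdc6 had 154, 133 and 149 in KO ctrl, against 75, 54 and 77 in wt ctrl (1.10 ± 0.13, adjusted p = 0.000215). The gaps in both genes were wider than the spread inside either group. Mcm5 (0.98), Mcm7 (0.90), Mcm6 (0.86), Mcm3 (0.66) and Mcm2 (0.38) followed. At the fork, Prim1, the catalytic subunit of primase (1.21), Pola1 (1.01), Mcm10 (1.00), Fen1 (0.88), Gins1 (0.80), Pcna (0.72), Cdc45 (0.66), Pole (0.65) and Pold1 (0.48) were higher, as were Uhrf1 (0.75), Ccne1 (0.62) and Slbp (0.58).

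The second probe sets of Pole (0.06, adjusted p = 0.892) and Fen1 (0.46, adjusted p = 0.0534) did not pass.

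Members that did not pass in the sham comparison were Chaf1a (0.57), Rfc3 (0.48), Rfc5 (0.29), E2f1 (0.15), Cdt1 (0.13) and Gins2 (0.05). Gins2, a subunit of the GINS complex, had 132, 147 and 134 in KO ctrl, against 119, 149 and 133 in wt ctrl, and its 95% interval ran from -0.17 to 0.26. Its partner Gins1 had 67, 66 and 75 in KO ctrl, against 47, 29 and 46 in wt ctrl. The groups overlapped in Gins2 and not in Gins1. Mcm2 missed the threshold without KO ctrl 3 (adjusted p = 0.0679), wt ctrl 2 (0.0669) or wt ctrl 3 (0.0771). Pole missed it without any 1 of the KO ctrl arrays (up to 0.0876), and Uhrf1 without any 1 of these (up to 0.0827) or without wt ctrl 2 (0.0777).

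KO against wt under paraquat asked whether the genotypes still differed in the presence of the oxidant. Of the 29 members 0 passed in limma, while 0.0992% of all genes passed as higher and 0.451% as lower. Without KO PQ 3 the number that passed was also 0. At an unadjusted p under 0.05, 3 members were higher (Mcm4, Pcna and Rfc5), against 1027 of all 22180 genes. With only the KO PQ and wt PQ arrays fitted, 9 members had such a p in either direction, and 10 did without wt ctrl 2. That array is outside this comparison but enters the pooled spread. In both fits 0 members passed after adjustment, and counts over all genes at this unadjusted p are not given for them. The median log2 difference was 0.17, with 24 differences above 0 and a range from -0.07 to 0.37. The arrays of KO PQ lay above those of wt PQ without overlap in 7 members, against 7.94% of all genes. Upper ends of the 95% intervals reached up to 0.72 (Rrm1), so a difference of that size lies within the error of at least that gene.

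Pcna came nearest the threshold, with 921, 869 and 1040 in KO PQ, against 767, 704 and 709 in wt PQ (log2 0.37, interval 0.19 to 0.56, adjusted p = 0.0814). It passed in 4 of 25 alternative settings, with adjusted p down to 0.0265. Mcm4 had 610, 582 and 635 in KO PQ, against 479, 467 and 472 in wt PQ (0.36, interval 0.08 to 0.65, adjusted p = 0.305). In both genes the KO PQ arrays lay above the wt PQ arrays. Cdc6, by contrast, had 59, 69 and 71 in KO PQ, against 61, 64 and 65 in wt PQ (0.06, interval -0.21 to 0.34).

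**Figure D3:**
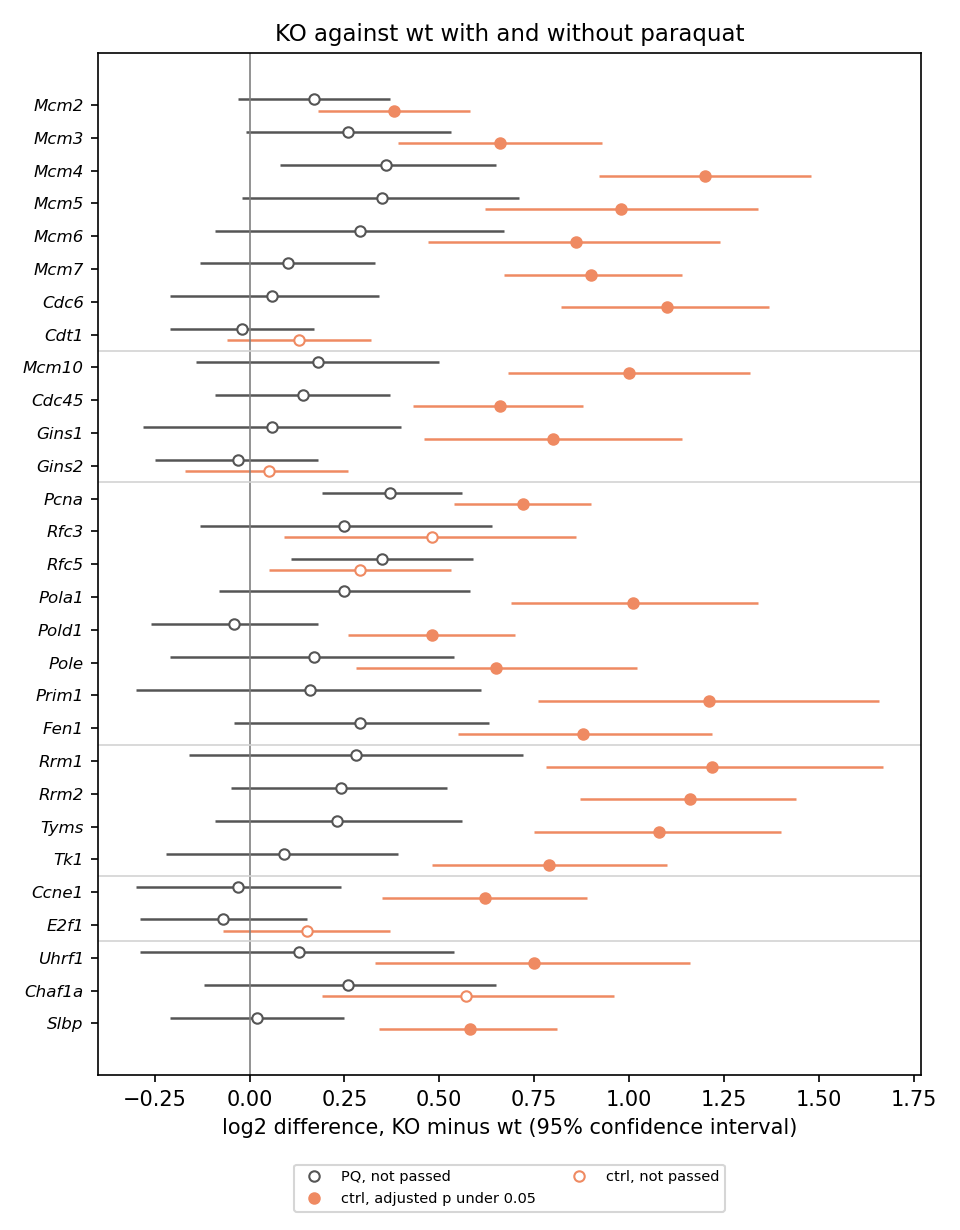
KO against wt for each member (rows, by role): log2 difference, KO minus wt, with its 95% confidence interval, under PQ (grey) and in ctrl (orange); filled points passed an adjusted p of 0.05 in limma. In ctrl 23 points are filled, all right of 0, and under PQ 0 points are filled and the values lie from -0.07 to 0.37.

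The difference of the paraquat responses, KO response minus wt response, was tested directly as the interaction in the same fit. It rests on the same KO ctrl and wt ctrl arrays as the comparisons above and is not separate evidence. Of the 29 members, 4 passed, all with a negative difference, against 0.897% of all genes passing with a negative difference and 1.39% with a positive one. The median difference was -0.59, with 28 values below 0. At an unadjusted p under 0.05, 21 members were below 0, against 1640 of all 22180 genes. Tested against at least 1.5-fold, 0 members passed (2 at an unadjusted p under 0.05), against 0.0135% of all genes with a negative difference. The 4 were Cdc6, Mcm7, Rrm2 and Mcm4, 3 licensing genes and a reductase subunit. All 4 fell in KO, and only Mcm7 among them passed as falling in wt.

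Cdc6, with the array values given above, was the member with the smallest p (log2 -1.03 ± 0.18, SE, adjusted p = 0.0106). Its mean signal was 66.3 ± 6.43 in KO PQ and 145 ± 11 in KO ctrl, and 63.3 ± 2.08 in wt PQ and 68.7 ± 12.7 in wt ctrl (SD, n = 3 arrays each). Only the KO ctrl arrays stood apart from the other 9. Those 9 lay at 54 to 77, not far above the array medians of 42 to 45. The difference for Cdc6 also passed with 16 added before log2 and with the dim genes filtered out. The effect of this low level was not tested otherwise. Mcm7 had signals of 185, 196 and 200 in wt PQ, against 301, 230 and 273 in wt ctrl, beside the larger fall in KO (difference -0.80 ± 0.15, adjusted p = 0.0159). Cdc6 and Mcm7 passed with each of the 12 arrays left out. The number of members that passed was 5 without wt ctrl 2, 4 without KO PQ 3, 9 without wt ctrl 1 and 2 without KO PQ 2, any 1 KO ctrl array, wt PQ 1 or wt PQ 2.

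Rrm2 (-0.92 ± 0.19, adjusted p = 0.0227) had 554, 465 and 606 in KO PQ, against 903, 865 and 876 in KO ctrl, while its wt groups overlapped. Its second probe set gave -1.12 (adjusted p = 0.0247). It missed the threshold without KO PQ 2, without any 1 KO ctrl array, or without wt PQ 1 or 2 (adjusted p up to 0.0661). Mcm4 (-0.84 ± 0.19, adjusted p = 0.0349) kept the call only without wt ctrl 1 or wt ctrl 2 and otherwise reached up to 0.0932. For Prim1 (-1.05) and Rrm1 (-0.94) the difference was as large as for these genes but the error was wider (SE 0.30 and 0.29), and neither passed (adjusted p = 0.0891 and 0.122). Mcm2, which fell in both genotypes, had a difference of -0.21 with an interval from -0.49 to 0.08.

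**Figure D4:**
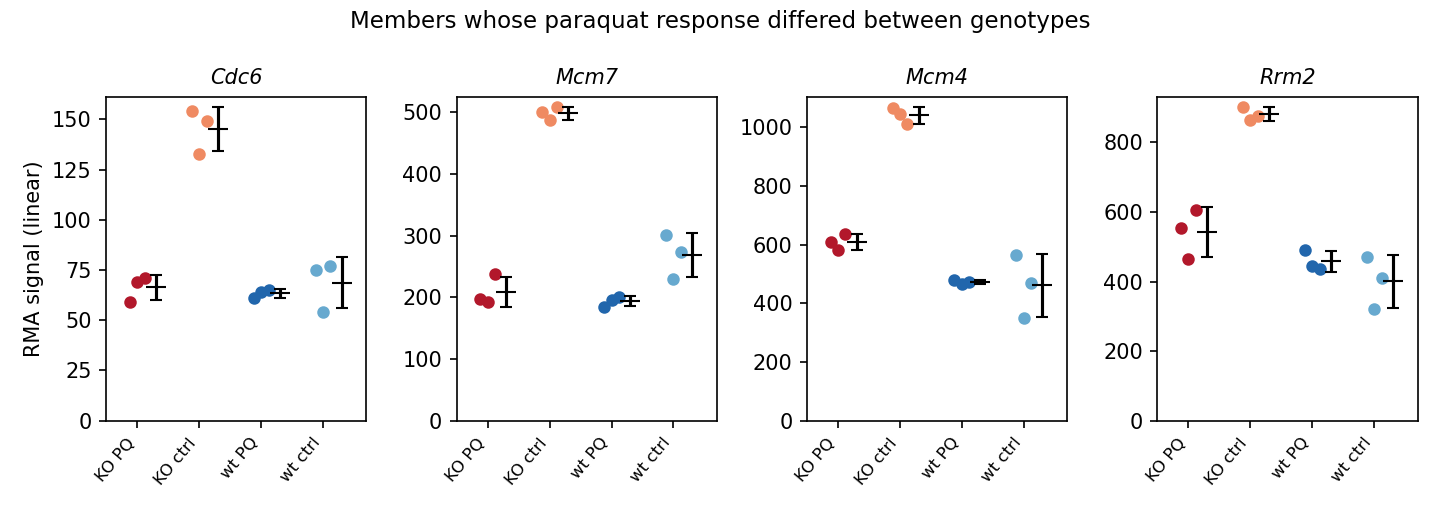
RMA signal (linear scale, starting at 0) of Cdc6, Mcm7, Mcm4 and Rrm2 in each array, with the mean and SD of each group (n = 3) as a black bar. In each gene the 3 KO ctrl arrays lie above all 9 other arrays, and only in Mcm7 do all wt ctrl arrays also lie above all wt PQ arrays.

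Other genes of the pathway were counted in a list of 52 measured replication genes outside the 29. In KO under paraquat 41 fell and 1 rose (median log2 -0.68), and in wt 28 fell and 2 rose (-0.35). Of all genes, 12.6% fell and 14.5% rose in KO, and 14.3% fell and 14.9% rose in wt. In sham cultures 32 were higher and 3 lower in KO than in wt (median 0.59), against 4.58% of all genes higher and 5.67% lower. Between the genotypes under paraquat 0 passed (median 0.19). At an unadjusted p under 0.05, 15 were higher there, against 1027 of all 22180 genes. The smallest p among the falls in KO belonged to Chaf1b (-1.35), the partner of Chaf1a, then Nasp (-1.13), a histone chaperone, and Dbf4 (-0.91), which activates the origin kinase CDC7. Pold4, the small subunit of the lagging-strand polymerase, rose in KO (1.58) and in wt (1.24). In wt, Mtbp, known in human cells as a partner of the origin firing factor treslin, had the smallest p (-1.35). The interaction passed in 5 of the 52, against 0.897% of all genes with a negative difference and 1.39% with a positive one. The difference was negative for the origin recognition genes Orc1 (-0.65) and Orc6 (-0.52) and for Dscc1 (-0.54), part of an alternative clamp loader, and positive for Mtbp (0.68). With 1 array left out at a time the interaction passed in 1 (KO PQ 2, KO ctrl 2 or wt PQ 1 omitted) to 8 (wt ctrl 1 omitted), with 2 when wt ctrl 2 was omitted, and in 0 without wt ctrl 2 and KO PQ 3 together.

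The G1/S control genes were counted in the same way. Of 22 E2F, RB and cyclin or kinase genes, 13 fell and 1 rose in KO under paraquat, and 9 fell and 1 rose in wt. Of all genes, 12.6% fell and 14.5% rose in KO, and 14.3% fell and 14.9% rose in wt. Ccna2, encoding the S phase cyclin A2, fell by 2.13 in KO, and Cdk2, the kinase partner of cyclins E and A, fell by 1.29 in KO and by 0.75 in wt. In sham cultures 11 were higher (7 without wt ctrl 2) and 1 lower in KO, against 4.58% of all genes higher and 5.67% lower. Among those higher were Skp2 (0.86), part of the ligase that removes CDK inhibitors, and the repressor E2f7 (0.80), while the D-type cyclin Ccnd2 was lower (-0.51). Of 7 CDK inhibitor genes, 3 rose and 2 fell under paraquat in KO, and 3 rose and 1 fell in wt. Cdkn1a, encoding p21, rose in KO (1.01) and in wt (0.69) and was lower in KO ctrl than in wt ctrl (-0.35, adjusted p = 0.0388). Cdkn1c, encoding p57, rose in both genotypes (0.92 in KO and 0.93 in wt). Cdkn1b, encoding p27, fell in both (-0.67 in KO and -0.66 in wt), Cdkn2d fell in KO (-0.37), and Cdkn2c, a D-type kinase inhibitor, rose in wt (1.11). The third gene that rose in KO is not named, since only 4 per comparison are. The interaction passed for Cdkn2c (-0.76, adjusted p = 0.031 in limma), the only 1 of the 7, and for 0 without KO PQ 3. Of all genes, 0.897% passed with a negative difference. The lower call for Cdkn1a in KO ctrl held only without KO ctrl 1, wt ctrl 1 or wt ctrl 3. In the other 9 of 12 omissions and with the replicate block, 0 of the 7 inhibitor genes were lower.

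Mitosis genes had larger medians than the replication genes. In KO under paraquat all 30 fell, with a median log2 of -1.90 against -0.96 for the replication genes, and in wt 19 fell (-0.79 against -0.42). Of all genes, 12.6% fell in KO and 14.3% in wt. In sham cultures all 30 were higher in KO (1.36 against 0.75), against 4.58% of all genes. Between the genotypes under paraquat 0 passed (0.32 against 0.17). At an unadjusted p under 0.05, 5 were higher there, against 1027 of all 22180 genes. The medians of the 2 lists are descriptions, and the gap between the lists was not tested. Leaving out wt ctrl 2, the mitosis genes that fell in wt numbered 28 and the median was -1.16, and leaving out wt ctrl 1 or wt ctrl 3 they numbered 12. That array lay nearer the others in the replication genes (mean log2 7.08, against 7.55 and 7.45 in wt ctrl 1 and 3) than in the mitosis genes. The mean log2 level over the 29 members was 7.13 ± 0.12 in KO PQ and 8.10 ± 0.05 in KO ctrl, and 6.96 ± 0.05 in wt PQ and 7.36 ± 0.25 in wt ctrl (SD, n = 3 arrays each).

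**Figure D5:**
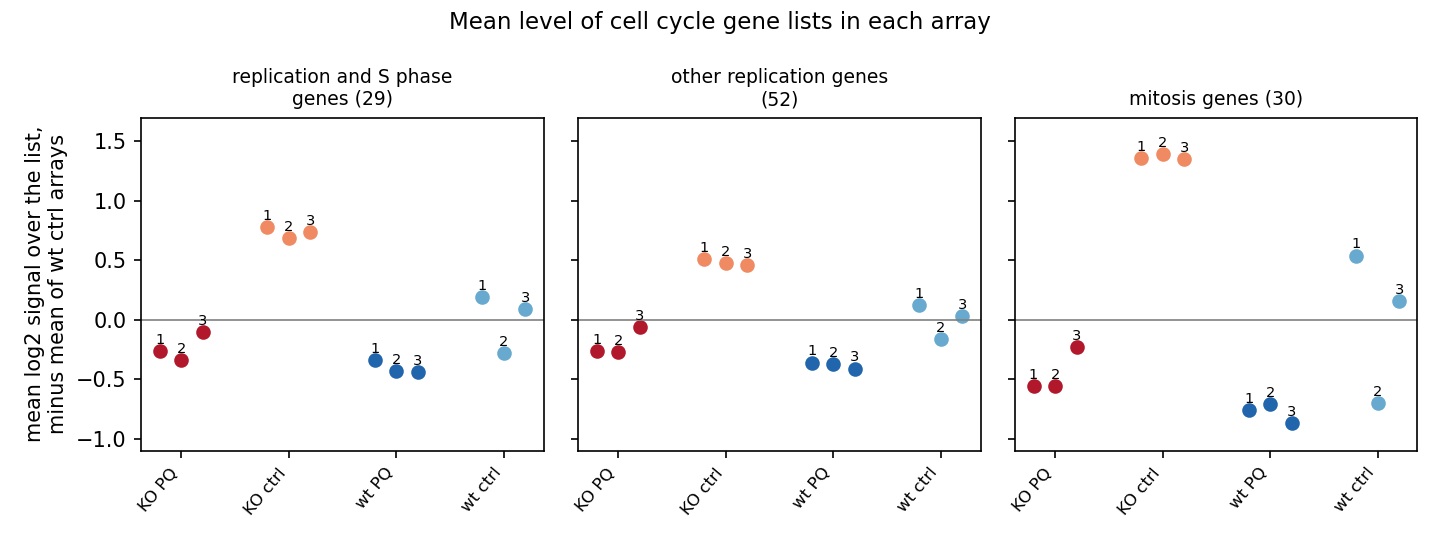
Mean log2 signal over each gene list in each array, minus the mean of the 3 wt ctrl arrays; points are arrays, numbered by replicate, and the number of genes is in each title. In all 3 lists the KO ctrl arrays are highest, and wt ctrl 2 lies below the other wt ctrl arrays, by most in the mitosis genes.

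Markers of the outer epidermal layers moved in both directions, most of them upward. Of 10 suprabasal keratinocyte markers, 8 rose and 2 fell under paraquat in each genotype. Of all genes, 14.5% rose and 12.6% fell in KO, and 14.9% rose and 14.3% fell in wt. Ivl, encoding the envelope protein involucrin, rose by 2.32 in KO and by 2.73 in wt, while the keratin Krt1 fell in wt (-1.4, adjusted p = 1.07e-05 in limma). The mean log2 level over this list was 9.48 to 9.72 in KO PQ and 8.57 to 8.83 in KO ctrl, and 10.03 to 10.20 in wt PQ and 9.04 to 9.31 in wt ctrl. In sham cultures 3 of the 10 were lower in KO (2 without wt ctrl 2) and 0 higher, and under paraquat 2 were lower in KO (0 without KO PQ 3). Of all genes, 5.67% were lower in KO in sham cultures and 0.451% under paraquat. The part of these 10 markers in the fall of the replication genes was not tested.

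Markers of cells other than keratinocytes ranged from dim to well above the array medians. Those at or under the median in every array were 2 of 9 melanocyte, 5 of 8 leukocyte, 3 of 7 endothelial and 2 of 11 fibroblast markers, and those above it in every array were 2, 2, 0 and 6. The counts under paraquat that follow stand beside shares of all genes: 14.5% rose and 12.6% fell in KO, and 14.9% rose and 14.3% fell in wt. Some of the counts lie near these shares. Of 9 melanocyte markers 4 rose in each genotype, at mean log2 levels of 5.94 to 6.03 in KO PQ and 5.41 to 5.55 in KO ctrl, and 5.93 to 6.20 in wt PQ and 5.26 to 5.53 in wt ctrl, with Tyr at 7 to 12. Mlana, at 53 to 398, rose by 2.36 in KO and by 2.57 in wt on the log2 scale. Of 8 leukocyte markers 2 rose in KO and 4 in wt, at levels of 5.48 to 5.52 in KO PQ and 5.26 to 5.32 in KO ctrl, and 5.66 to 5.71 in wt PQ and 5.25 to 5.37 in wt ctrl, with Ptprc at 13 to 21. Cd68, a lysosomal protein of macrophages, was at 559 to 1870 and rose by 1.05 in KO and by 1.64 in wt. Of 7 endothelial markers 2 rose in KO and 3 in wt, at 5.44 to 5.55 in KO PQ and 5.11 to 5.14 in KO ctrl, and 5.51 to 5.57 in wt PQ and 4.99 to 5.12 in wt ctrl, with Emcn at 12 to 14. Kdr, at 45 to 295, rose by 1.38 in KO and by 2.21 in wt. Of 11 fibroblast markers 2 fell and 1 rose in each genotype, at 5.68 to 5.87 over both KO groups and 5.72 to 5.89 over both wt groups, with Lum at 8 to 12. No marker was at 0, since the lowest deposited signal was 3, and the part of these cell types in the results was not tested.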

How the data were processed

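Per the submitters' processing notes, the authors processed the arrays by RMA in Affymetrix Expression Console 1.3.1.187. The deposited table holds 1 intensity per probe set and array, as whole numbers between 3 and 17695. Since array medians nearly match, it is taken as rounded RMA output on the linear scale, and log2 was computed from it. The sources used here do not give a genome build or filters. Of 41345 probe sets, 23521 carried 1 gene symbol, 1814 several and 16010 none in GEO's platform annotation, and 22180 genes remained with no filter on signal.

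A model with 1 mean per group was fitted over the 12 arrays with limma 3.58.1 in R 4.3.3, with no block, and p-values were Benjamini-Hochberg adjusted over all 22180 genes (threshold 0.05, 2-sided). SE come from this fit. The fit was tested on simulated data. Named outside the list were up to 4 genes per list and comparison in order of p. The members and lists were chosen with earlier results of these data known. The 25 alternatives covered scaling, filters, probe sets, variance models, samples, a replicate block and left-out arrays.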

Additional observations from a re-analysis of the deposited data

Results flagged for a closer look

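The paraquat response differed between genotypes by the fitted interaction in 4 members. The log2 difference, KO response minus wt response, was -1.03 for Cdc6, -0.92 for Rrm2, -0.84 for Mcm4 and -0.80 for Mcm7 (limma, adjusted p = 0.0106, 0.0227, 0.0349 and 0.0159). All 4 also differed between KO ctrl and wt ctrl and rest on the same sham arrays, and 0 of them passed between KO PQ and wt PQ (Mcm4 at an unadjusted p under 0.05).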

How the results depend on the processing

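In all 25 alternatives (24 for the interaction, which needs all groups), 0 called members changed sign. With at least 1.5-fold tested, 13 members passed in the KO response, 1 in the wt response, 0 for KO against wt in ctrl and 0 in the interaction, since this test asks for a larger change. For KO against wt under paraquat, 1 member (Pcna) passed with the dim genes filtered out, with 16 added before log2, with a variance trend and with array weights, against 0 in the reported fit. In the interaction the count of 4 became 12 with the dim genes filtered out, 10 with 16 added, 7 with a variance trend and 7 without wt ctrl 2 and KO PQ 3 together, and the cause was not tested. Leaving out 1 array at a time gave 26 to 29 members in the KO response, 13 to 21 in the wt response, 20 to 25 for KO against wt in ctrl, 0 to 0 under paraquat and 2 to 9 in the interaction. Fitting only the arrays compared gave 13 members in the wt response and 18 for KO against wt in ctrl. The labels do not tie equal replicate numbers to a shared animal or day, and deviations of same-numbered arrays were not correlated (-0.0727 to 0.0902 over 18 pairs). With the replicate number as a block, 7 members passed in the interaction, 29 fell in the KO response, 19 fell in the wt response, 24 were higher in KO ctrl and 0 passed under paraquat. Signals near the array median limit Gins1 and Cdc45, and other members, such as Cdc6 and Fen1, lay not far above it outside KO ctrl.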
